A study of Mus musculus with 15 samples.

Results

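A set of 10 identity genes of astrocytes was followed across the cell classes, ages and treatments of a single-cell RNA-seq study of the mouse prefrontal cortex (PFC). The genes were Aqp4, Gja1, Gjb6, Aldh1l1, Gfap, Slc4a4, Agxt2l1, Fgfr3, Aldoc and Acsbg1, taken by symbol. All 10 were found among the 26145 genes counted. Astrocytes are the glial cells that clear glutamate and potassium around synapses, wrap blood vessels with their endfeet and share ions and metabolites through gap junctions. The 10 genes code for 2 gap-junction subunits, a water channel, a bicarbonate transporter, a growth factor receptor, a cytoskeletal filament and 4 metabolic enzymes. None codes for a glutamate transporter or a potassium channel. Gja1 was also the gene by which the study marked its astrocyte class, so its restriction to that class was part of the definition.

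PFC tissue of male C57BL/6N mice was dissociated and cells were captured in droplets, where each captured RNA molecule carries a unique molecular identifier (UMI). The 12 libraries called P60 came from mice of 8 to 10 weeks that had self-administered cocaine or saline through an intravenous catheter, and were taken at the end of training (maintenance), after 48 h of withdrawal or after 15 d of withdrawal. Each of these 6 groups had 2 libraries, and each library pooled the tissue of 2 mice. The 3 P21 libraries came from mice of 3 weeks with no treatment. The methods give 4 mice for P21 and pools of 2 mice, which do not make 3 separate pools, so the P21 libraries may not be independent samples and the p-values of the comparison of age may be too small. The saline animals carried the catheter and the training as the cocaine animals did, whereas the P21 animals did not, so age cannot be told apart from that history. A tissue label of all samples reads nucleus accumbens while their titles and source names read PFC, and the samples are described here as PFC.

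The 35360 cells of the deposited table carried a class and cluster, fewer cells at P21 than the methods of the study state. A cell was counted here as an astrocyte where both were astrocytic. This left 1801 astrocytes, 1495 at P60 and 306 at P21. Total UMIs ran from 8375172 to 42892922 per library, and the median astrocyte held 3512 UMIs at P60 and 3001 at P21. Astrocytes numbered 49 to 254 in 11 of the 12 P60 libraries and 214, 41 and 51 in the P21 libraries. The second saline maintenance library held 8 and was left out of the astrocyte levels by library and of the tests on them, but its cells are part of the shares pooled over cells, of the clusters and of the share of astrocytes among all cells. For levels, the maintenance phase thus kept 1 saline library and was not tested on its own. Any 2 libraries shared at most 27 cell barcodes. The 4 astrocyte marker genes outside the 10 (Slc1a2, Slc1a3, Sox9 and Slc7a10) summed to 6857 to 9775 CPM (UMIs of a gene per 1000000 UMIs of the class in that library) at P60 and to 9773 to 10986 CPM at P21. These markers were thus high in every library used.

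The water channel gene Aqp4 has the identifier ENSMUSG00000024411. On build NCBIM37 (mm9), Gja1 (ENSMUSG00000050953) spans chr10:56097106-56110225 on the plus strand, Gjb6 (ENSMUSG00000040055) chr14:57742140-57752448 on the minus strand, Aldh1l1 (ENSMUSG00000030088) chr6:90436421-90550197 on the plus strand and Gfap (ENSMUSG00000020932) chr11:102748650-102762226 on the minus strand. Slc4a4 (ENSMUSG00000060961) spans chr5:89315843-89668678, Agxt2l1 (ENSMUSG00000019232) chr3:130320366-130338668, Fgfr3 (ENSMUSG00000054252) chr5:34064373-34079716 and Aldoc (ENSMUSG00000017390) chr11:78136470-78141283, all on the plus strand. Acsbg1 (ENSMUSG00000032281) spans chr9:54452684-54509677 on the minus strand. Aldh1l1 overlaps the antisense gene Gm15756 and Gfap the antisense gene Gm17536. The libraries keep strand, and the strand setting of the counting is not given in the sources used here.

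Promoter windows, from 250 bases before to 50 after an annotated start, were taken from RefSeq on build GRCm38.p6, which differs from the build of the counts. They covered 9 of the 10 genes in 13 windows. The windows of the 4 genes on which the comparisons turned most are printed, on the strand of the gene. Capitals mark a match, on either strand, to a short motif: the GC box GGGCGG in Agxt2l1 (named Etnppl in RefSeq, chr3:130617198-130617497, plus), the STAT motif TTCNNNGAA in Gfap (chr11:102897151-102897450, minus), the AP-1 motif TGACTCA in Gja1 (chr10:56377050-56377349, plus) and the STAT motif in the downstream of the 2 starts of Aldoc (chr11:78323948-78324247, plus).
Agxt2l1: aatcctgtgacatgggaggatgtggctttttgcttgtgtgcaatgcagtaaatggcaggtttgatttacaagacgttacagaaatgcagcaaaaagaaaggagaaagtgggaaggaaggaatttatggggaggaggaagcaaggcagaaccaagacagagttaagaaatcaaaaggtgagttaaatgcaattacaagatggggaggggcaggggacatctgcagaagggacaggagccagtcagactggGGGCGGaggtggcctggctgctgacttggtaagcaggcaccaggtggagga
Gfap: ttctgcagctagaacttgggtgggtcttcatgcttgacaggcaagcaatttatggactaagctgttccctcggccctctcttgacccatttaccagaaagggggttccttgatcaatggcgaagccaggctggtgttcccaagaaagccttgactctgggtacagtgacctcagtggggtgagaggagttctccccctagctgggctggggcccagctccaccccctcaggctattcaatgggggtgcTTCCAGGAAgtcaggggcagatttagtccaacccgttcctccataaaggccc
Gja1: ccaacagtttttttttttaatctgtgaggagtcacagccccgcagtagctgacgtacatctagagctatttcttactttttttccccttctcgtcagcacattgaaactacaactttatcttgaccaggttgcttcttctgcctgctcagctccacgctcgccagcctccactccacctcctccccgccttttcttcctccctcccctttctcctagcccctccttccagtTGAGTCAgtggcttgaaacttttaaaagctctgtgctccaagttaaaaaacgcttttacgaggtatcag
Aldoc: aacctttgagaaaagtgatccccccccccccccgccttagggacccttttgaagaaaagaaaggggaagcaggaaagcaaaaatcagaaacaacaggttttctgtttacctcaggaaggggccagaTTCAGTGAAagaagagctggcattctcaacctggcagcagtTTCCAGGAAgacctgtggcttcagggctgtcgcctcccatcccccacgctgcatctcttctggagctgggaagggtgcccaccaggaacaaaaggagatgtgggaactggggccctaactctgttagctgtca
In Gfap the word TTCCAGGAA began at base -2 from the start, and the same word began at base -83 in Aldoc, where TTCAGTGAA began at base -124. In Gja1 the word was TGAGTCA, the reverse complement of the motif, at base -19. A STAT motif was found in 3 of the 13 windows, against 8.3% of all 32851 windows, the AP-1 motif in 1 against 5.2% and the GC box in 7 against 35.7%. The 2 windows of Agxt2l1 overlap and hold the same GC box, so these 7 windows count that site 2 times. The NFI motif TTGGCA was found in 2 windows against 14.1%, while TATAAA and the SOX motif ACAAAG were found in 0, against 13.6% and 18.7% of all windows. CpG pairs were few in most of the windows: 10 of the 13 held 9 or fewer, as did 56.5% of all windows, whereas the upstream Slc4a4 window held 50 and the Fgfr3 windows 26 and 30. These matches describe letters in a window and were not tested for binding.

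All 10 genes were highest in astrocytes at P60. In each of the 11 libraries every gene stood above its level in the class with the next highest mean. Because the cells were clustered on expression that included these genes, the differences between classes are given as a description, with no test. The order below follows the roles of the genes.

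The gap-junction subunits were Gja1 (connexin 43) and Gjb6 (connexin 30), the main channel proteins by which astrocytes are coupled. Gjb6 had 794 ± 222 CPM in astrocytes (SD, n = 11 libraries), 99.3 times the 7.99 ± 16.5 CPM of newly formed oligodendrocytes, the next class. That ratio was the second highest of the 5680 genes that reached 20 CPM in astrocytes. Gja1 exceeded its endothelial level 31.6-fold and its lowest class mean was 1.31 CPM, in excitatory neurons.

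Aqp4, the water channel of the endfoot, had 700.2 ± 152 CPM (n = 11) and was 20.4 times its level in oligodendrocyte precursors, 34.3 ± 13.4 CPM. Slc4a4, a sodium bicarbonate cotransporter, had 383 ± 53.9 CPM and the smallest ratio of the 10, 10.7, again to precursors. Fgfr3, a receptor for fibroblast growth factors, had 293 ± 43.1 CPM, 23.8 times that of precursors. Precursors were thus the next class for these 3 genes.

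Of the enzymes, Aldoc (aldolase C, a step of glycolysis) had 13157 ± 2536 CPM (n = 11), 17.9 times the 734 ± 192 CPM of precursors. Acsbg1, which activates long-chain fatty acids, had 1189.6 ± 209 CPM and a ratio of 30.3. Aldh1l1, a folate enzyme widely used to label astrocytes, had 214 ± 25.1 CPM and a ratio of 41.4. Agxt2l1, a phospholyase that breaks down phosphoethanolamine, had 209 ± 45.4 CPM and was 56.3 times newly formed oligodendrocytes, a ratio ranked 4 of 5680.

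Gfap, the intermediate filament best known from reactive astrocytes, had 134 ± 94.9 CPM (n = 11), 35.9 times that of precursors. It was by far the most uneven of the 10 between libraries, from 37.8 CPM in the maintenance saline library to 332 CPM in a 48 h saline library. Its coefficient of variation was 71.1%, while the other 9 lay between 11.7% for Aldh1l1 and 28.0% for Gjb6. Among the other classes, the ranges of classes next to each other in the order of means overlapped for every gene, with the exception that Aldoc in precursors lay above mature oligodendrocytes without overlap.

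**Figure D1:**
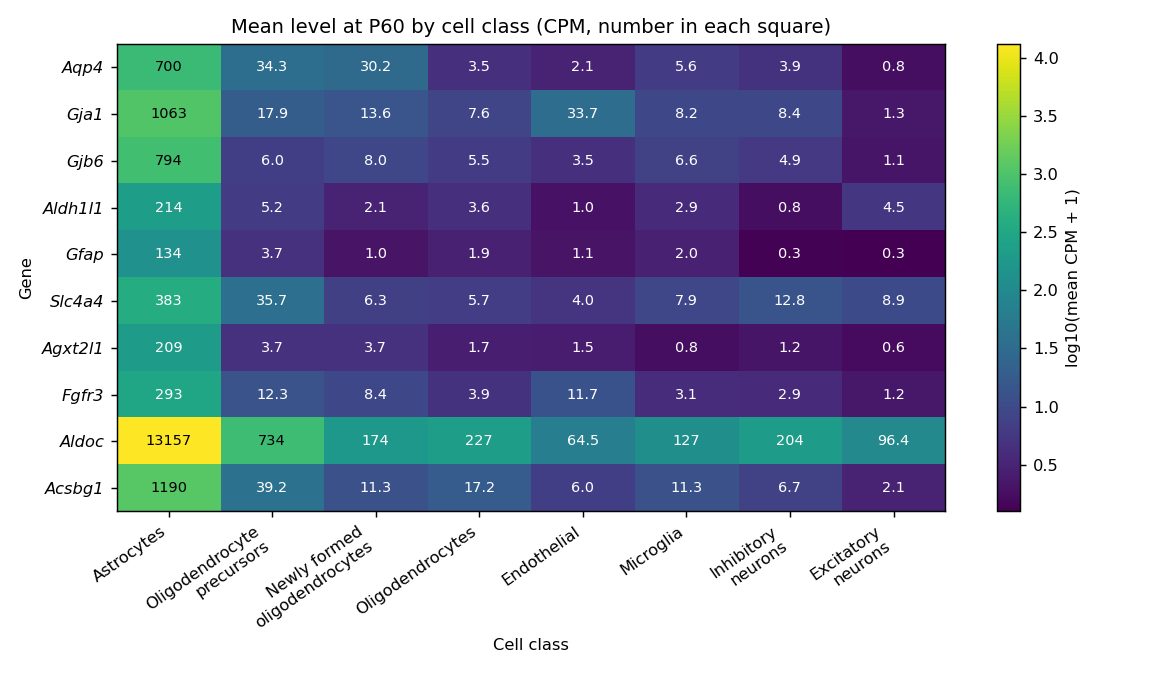
Mean level at P60 of the 10 genes (one line each) in the 8 cell classes (columns), as CPM averaged over libraries, shown by colour on a log scale with the value written in each cell. The astrocyte column holds the highest value of every gene, from 134 CPM for Gfap to 13157 CPM for Aldoc, and oligodendrocyte precursors hold the next highest for 7 of them.

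The genes whose levels ran most closely with the mean of the 10 were Cyp4f15, Slc25a18, Prdx6, Rpe65 and Ppp1r3g. Their Pearson correlations with that mean were 0.932, 0.929, 0.928, 0.927 and 0.922 on the log2 scale, over 93 sums of a class in a library from 8 classes. The 10 genes themselves had values from 0.870 for Slc4a4 to 0.936 for Gjb6. These points share libraries and depth, and the values mostly measure the contrast between astrocytes and the other classes.

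Detection in single cells followed the same pattern, with large differences between the genes. With all UMIs, 100% of P60 astrocytes held Aldoc, 96.1% Acsbg1, 93.5% Gja1, 90.1% Gjb6, 85.1% Aqp4, 69.0% Slc4a4, 62.3% Fgfr3, 49.6% Aldh1l1, 45.6% Agxt2l1 and 13.6% Gfap. For Gfap the counting interval was 11.9% to 15.4% (Wilson 95% over 1495 cells), and the 11 libraries ran wider, from 4.65% to 25.5%. In endothelial cells, a class with a median of 4516 UMIs that is not known for most of these genes, the shares were 0.505% for Gfap, 0.645% for Agxt2l1, 13.2% for Gja1 and 15.7% for Aldoc.

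Cells with at least 2000 UMIs were thinned to 2000, so that depth was equal, and shallower cells were left out. This kept all 1495 astrocytes at P60 and 292 of 306 at P21. The cells lost were all of P21 library 3, which kept 37 of 51. An astrocyte at P60 then held on average 5.78 ± 0.30 of the 10 genes (SD, n = 11 libraries, range 5.29 to 6.17). At P21 the mean was 5.10 ± 0.12 (n = 3, range 4.97 to 5.21). Only 1 of 1487 thinned P60 astrocytes held none of them, and 0 of 292 at P21. In the other classes at P60 the means lay between 0.175 in microglia and 0.892 in oligodendrocyte precursors, and 26.2% of precursors but 86.9% of microglia held none.

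Within the astrocytes of P60 the study drew 8 clusters, and 2 of the 10 genes separated them far more than the others did. The clusters were defined on these cells, so their values are a description. Agxt2l1 ran from 3.80 CPM in Astro_1, where 140 cells held 2 UMIs, and 46.4 CPM in Astro_8 to 421 CPM in Astro_7. Astro_7 held 42.3% of all Agxt2l1 UMIs in 22.8% of the cells.

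Gfap was nearly confined to Astro_3, which held 550 of its 597 UMIs, or 92.1%, in 13.6% of the cells. The level was 774 CPM in Astro_3 and 98.4 CPM in Astro_6. Astro_7, the cluster highest in Agxt2l1, had 0 Gfap UMIs in 341 cells, which allows a share of cells with a UMI of up to 0.880%. Astro_3 was also the cluster highest in Aqp4, with 1033 CPM against 411 CPM in Astro_2.

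The other 7 genes varied from 1.48-fold for Gjb6 to 2.18-fold for Aldh1l1 between their highest and lowest clusters. With UMIs pooled over libraries, Astro_2 was the lowest cluster for Aqp4, Gja1, Gjb6, Slc4a4, Aldoc and Acsbg1, and Astro_1 for Aldh1l1, Fgfr3 and Agxt2l1. By the median of libraries with at least 10 cells of the cluster, of which Astro_1 had 4 and Astro_2 had 8, Astro_1 was instead the lowest for Gjb6 (543 against 569 CPM) and level with Astro_2 for Slc4a4 (270.2 against 270.7 CPM). The neuronal gene Snap25 stood at 1132 CPM in Astro_1 and 1421 CPM in Astro_2, against 205 to 448 CPM in the other 6 clusters, and its part in these low values was not tested. Astrocytes of P21 carried a single cluster name, so no such comparison was possible there.

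**Figure D2:**
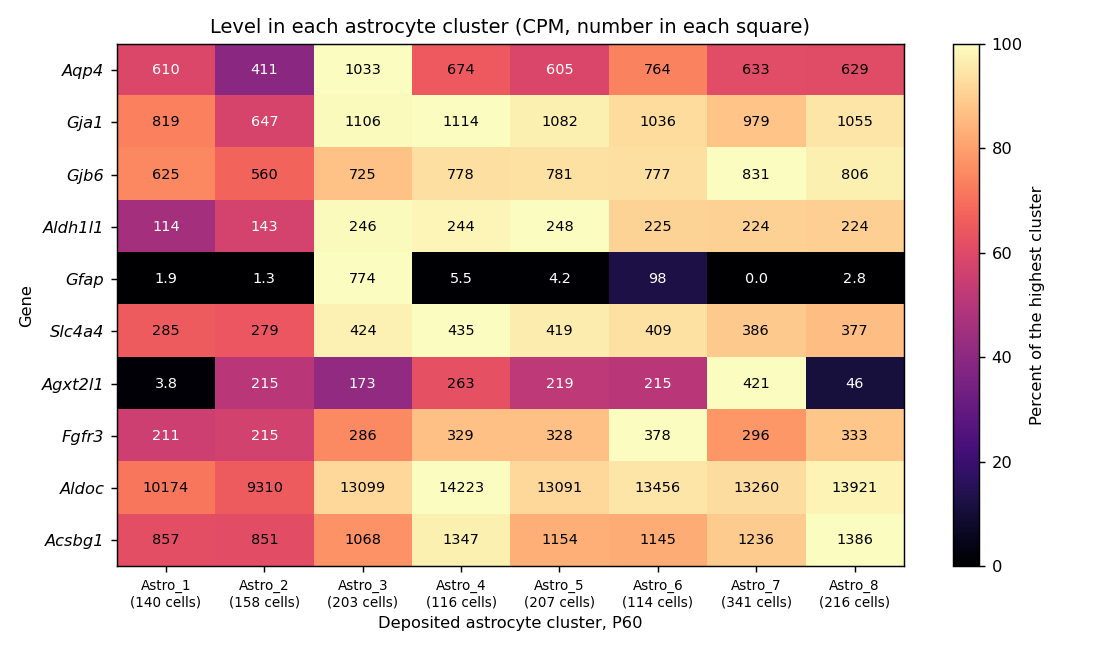
Level of the 10 genes (lines) in the 8 astrocyte clusters of P60 (columns). The value written in each square is CPM over the summed UMIs of the cluster, and colour gives it as a percent of the highest cluster of that gene. Gfap reaches 774 CPM in Astro_3 and is at 0 in Astro_7, where Agxt2l1 is at its highest, 421 CPM, while the other genes differ by 2.51-fold or less.

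Gfap was concentrated in few cells at P60 and spread over more cells in 2 of the 3 P21 libraries. The tenth of the astrocytes with the most Gfap UMIs held 79.4% to 100% of them in the P60 libraries used, and 83.8%, 51.7% and 43.2% in the 3 P21 libraries. Thinned astrocytes with and without a Gfap UMI were set side by side in the 10 libraries that had at least 10 of each. Vim, another intermediate filament, was higher in the cells with Gfap in 10 of 10 libraries, with a median log2 ratio of 1.49. Aqp4 was higher in 9 of 10 libraries, with a median of 0.62, and Gjb6 in 1 of 10, with a median of -0.32. Of the others, Aldh1l1 was higher in 7 of 10 libraries, Slc4a4 in 6, Gja1 in 4, Agxt2l1, Fgfr3 and Acsbg1 in 3 each and Aldoc in 2. These are descriptions of cells split on 1 of the genes, with no test.

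The comparison of age set 5 saline P60 libraries against the 3 P21 libraries, fitted across all genes with edgeR on UMIs summed over astrocytes. A gene was called where its Benjamini-Hochberg adjusted p was below 0.05 and its change over 1.5-fold. Of 5673 genes tested, 49 were called (0.864%), 8 higher at P60 (0.141%) and 41 lower (0.723%). These counts were not stable: without P21 library 1 they were 74 and 115, without P21 library 2 they were 0 and 1, without P21 library 3 they were 2 and 22, and with P21 libraries 2 and 3 summed as 1 sample 1 and 9. Leaving out the first maintenance saline library gave 3 and 27, the first of 48 h 3 and 23, the second of 48 h 2 and 24 and the second of 15 d 11 and 75. Of the 10 identity genes 1 was called, Agxt2l1, and it was higher at P60. The median log2 difference of the 10 was 0.16, against 0.05 for all genes tested, and 8 of the 10 were positive.

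Agxt2l1 had 83.3, 49.2 and 17.7 CPM in the P21 libraries. It had 227 CPM in the maintenance saline library, 164 and 192 CPM in those of 48 h and 165 and 222 CPM in those of 15 d. All 5 saline libraries lay above all 3 P21 libraries, and the means differed 3.87-fold. Agxt2l1 rose by 1.67 ± 0.33 on the log2 scale from P21 to P60 (estimate ± SE, 95% interval 0.96 to 2.37, edgeR adjusted p = 0.0249). DESeq2 gave 1.70 with an adjusted p of 0.00346.

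Few UMIs stood behind the P21 values of Agxt2l1: 55, 5 and 2. The call was lost when P21 library 2 was left out (edgeR adjusted p = 0.159), and likewise without P21 library 3 (0.0962), the first 48 h saline library (0.0694) or the second (0.0718). It was also lost when P21 libraries 2 and 3 were summed as 1 sample (log2 difference 1.59, adjusted p = 0.0966). The direction was the same in every one of these fits.

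The share of thinned astrocytes with an Agxt2l1 UMI was 11.7%, 7.32% and 0% in the P21 libraries. The 0% was 0 of 37 cells, which allows up to 8.11%. In the saline P60 libraries the shares ran from 23.6% to 31.9%, with no overlap. With cells thinned to 1000 UMIs the groups overlapped, with up to 12.2% at P21 and from 10.2% in saline P60. These are the same libraries as in the test and no independent evidence of the difference.

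Gfap had 253, 1142 and 1683 CPM in the P21 libraries and 37.8, 207, 332, 144 and 74.2 CPM in the saline libraries, listed from maintenance to 15 d. The groups overlapped, since P21 library 1 lay below the highest 48 h saline library. The log2 difference was -2.76 ± 0.83 (95% interval -4.76 to -0.76) and Gfap was not called (edgeR adjusted p = 0.227, DESeq2 0.0509). It was called lower, at -2.95 with an adjusted p of 0.0222, when all 11 P60 libraries entered the fit. Between 16.8% and 67.6% of thinned P21 astrocytes held a Gfap UMI, against 5.51% to 20% of those of saline P60.

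Fgfr3 had 242, 128 and 159 CPM at P21 and 320, 271, 270.4, 231 and 314 CPM in the saline libraries. Only the lowest saline library, of 15 d, fell among the P21 values. The log2 difference of 0.59 ± 0.25 was not called (edgeR adjusted p = 0.318), and it was called without P21 library 1 (log2 difference 1.01, adjusted p = 0.0438). The share of thinned astrocytes with an Fgfr3 UMI was 21.6% to 31.3% at P21 and 40.2% to 44.6% in saline P60. Agxt2l1 and Fgfr3 were the 2 genes of the 10 for which these shares did not overlap. How many of all genes separate the ages in this way was not counted, so these 2 have no background to be set against.

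The other 7 genes were not called, and their groups overlapped. Gjb6 had 709, 541 and 328 CPM at P21 and 482 to 944 CPM in saline P60, a log2 difference of 0.48 with a 95% interval of -0.21 to 1.16. The estimates were 0.44 for Acsbg1, 0.26 for Aldoc, 0.07 for both Aldh1l1 and Gja1, 0.01 for Slc4a4 and -0.01 for Aqp4. The intervals of the last 2 were -0.42 to 0.45 and -0.54 to 0.52, which include differences in either direction.

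**Figure D3:**
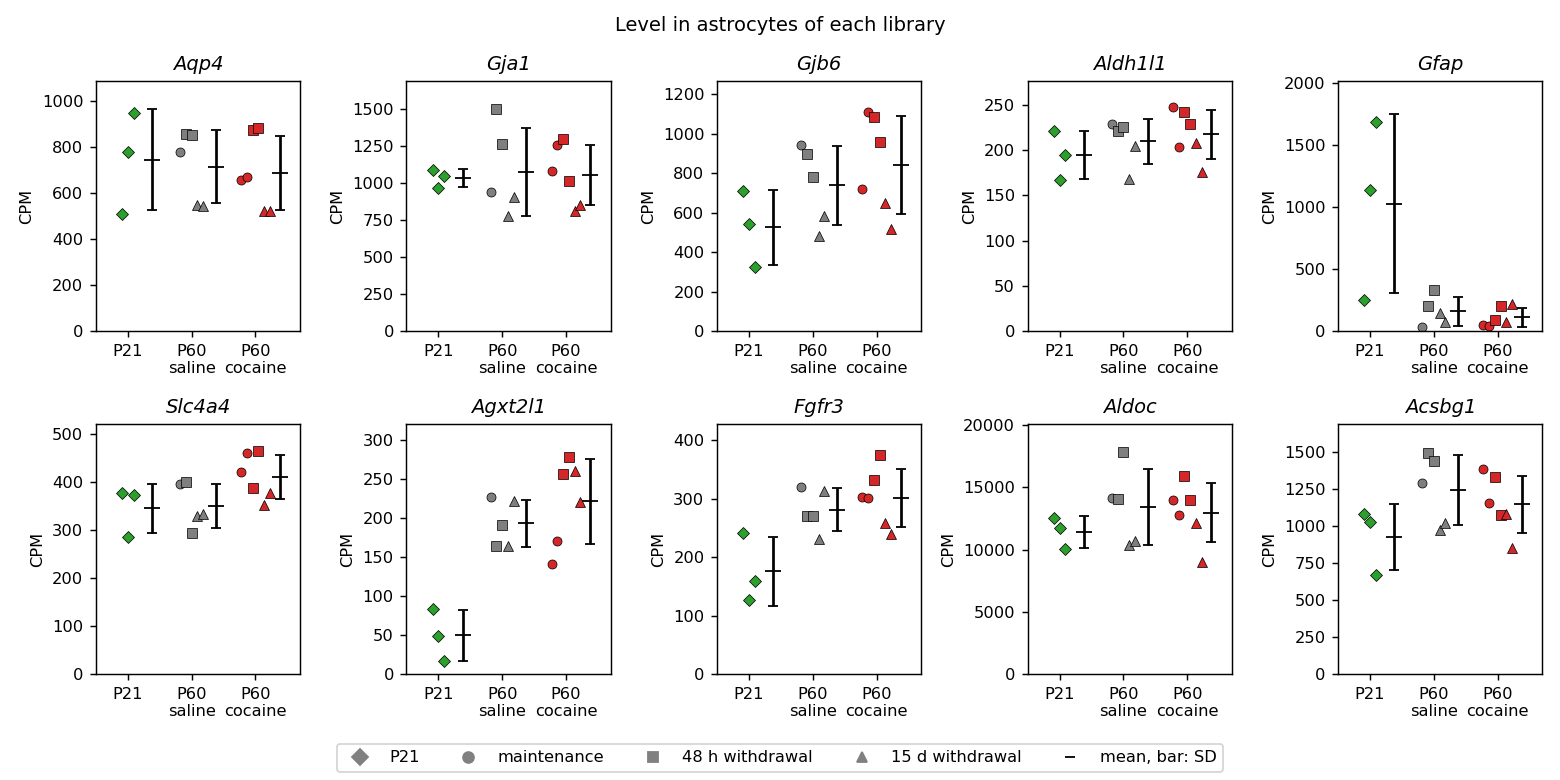
Level of the 10 genes in astrocytes, 1 panel per gene, as CPM in each library of P21 (n = 3), P60 saline (n = 5) and P60 cocaine (n = 6). The marker shape gives the phase and bars give the mean and SD. The P21 values of Agxt2l1, 17.7 to 83.3 CPM, lie below all saline libraries, while those of Gfap reach 1683 CPM.

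Other genes of the same pathways, taken from fixed lists, gave 0 calls in most lists. Of 26 other astrocyte genes tested, 0 were called and the median log2 difference was -0.17. Among them the markers Slc1a2, Slc1a3, Sox9 and Slc7a10 summed to 9773 to 10986 CPM at P21 and to 6857 to 9291 CPM in saline P60. These sums were lower in saline P60 with no overlap. Over all P60 libraries used, only Slc1a2 was lower without overlap, at 3852 to 4906 CPM against 5381 to 6979 CPM at P21. The ranges of Slc1a3, Sox9 and Slc7a10 overlapped, and Slc1a3 reached 4051 CPM at P60 against 3203 CPM at P21. The glycolytic enzymes beside Aldoc had 15 of 16 members tested, 0 called, and all 15 estimates were positive, with a median of 0.65 against 0.05 for all genes. Among them Gapdh, named after its value was seen, had 1.00 ± 0.29 with an edgeR adjusted p of 0.135. The 15 estimates come from the same libraries and are not independent. How many of all genes had a positive estimate was not counted.

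The list of filaments and reactive genes around Gfap had 2 of 14 tested and 0 called, and its filament Vim had a log2 difference of -1.04 ± 0.39. The endfoot list around Aqp4 had 7 of 10 tested, 0 called, with a median of 0.04. The FGF list around Fgfr3 had 8 of 13 tested, 0 called, with a median of -0.15. Bicarbonate transport had 6 of 11 tested (median 0.29), folate enzymes 2 of 11 (-0.06) and acyl-CoA and phosphoethanolamine metabolism 4 of 11 (0.22), each with 0 called. The list of other connexins and pannexins had 0 of 10 tested, since none passed the filter on low counts.

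The one list with calls was that of dissociation and stress genes, of which 8 of 10 were tested and 2 called, both lower at P60. Jun fell by 1.81 on the log2 scale (SE 0.29, edgeR adjusted p = 0.00823) and Ier2 fell by 3.28 (SE 0.58, adjusted p = 0.0494). Both calls were lost without P21 library 2 (edgeR adjusted p = 0.0634 for Jun and 0.137 for Ier2), without P21 library 3 (0.0707 and 0.150) and with these libraries summed (0.0619 and 0.147). That of Ier2 was also lost without the first maintenance saline library (0.0732), the first of 48 h (0.110) or the second of 48 h (0.0798), and every estimate stayed below 0. The list had a median of -1.91. Both are immediate-early genes, known to respond to tissue dissociation. All genes were compared over the same libraries, and the part of dissociation in the change of Agxt2l1 was not tested.

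Markers of other cells were present in the astrocyte sums of both ages. The 4 endothelial markers summed to 301, 9.84 and 204 CPM in the P21 libraries and to 5.63 to 151 CPM in saline P60. The 3 excitatory markers summed to 98.4 to 273 CPM at P21 and to 59.6 to 1533 CPM in saline P60, highest in the 15 d libraries. Oligodendrocyte markers summed to 98.4 to 275 CPM at P21 and to 33.8 to 222 CPM in saline P60. The precursor markers Pdgfra and Cspg4 reached 22.7 and 12.1 CPM at P21 and 4.08 and 5.63 CPM at P60. Both were at 0 in some libraries of each age. Of the defining markers, Bmp4, Acta2, Tmem212 and Ccdc153 were at 0 in every library used, but other markers of the same cells were found. Rgs5 had 29.5 to 44.3 CPM at P21 and 0 to 17.1 CPM at P60, and Foxj1 3.03 to 9.84 CPM against 0 to 1.45 CPM. Kcnj8, Enpp6 and Neu4 reached 9.84, 1.52 and 9.84 CPM at P21 and 3.32, 2.01 and 3.32 CPM at P60. These last genes were at 0 in some libraries of each age. The median mitochondrial share of UMIs in astrocytes was 4.12%, 4.88% and 4.38% at P21 and 2.87% to 3.49% in the saline P60 libraries used, with no overlap. The part of these cells, of the stress genes or of the mitochondrial share in the differences with age was not tested.

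The definition of an astrocyte mattered at P21. There, 99 cells of the astrocyte class carried a cluster of another class and were left out. They had a median of 7522 UMIs, 2005 CPM of the neuronal gene Snap25 and 2109 CPM of Aldoc. With them included, 6 of the 10 genes were called higher at P60: Gjb6, Aldh1l1, Agxt2l1, Fgfr3, Aldoc and Acsbg1. In that fit 228 genes were called higher and 258 lower. The number of genes tested in it is not given here, so the 6 cannot be set against a share of all genes.

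Cocaine was compared with saline in astrocytes at 48 h and at 15 d of withdrawal, with 2 libraries against 2 in each, and over both phases as the mean of the 2 contrasts. The saline libraries are the same as in the comparison of age. Of 7415 genes tested, 0 were called at 48 h (0%), 1 at 15 d (0.0135%), 0 over both phases (0%) and 0 for the difference between the phases (0%). These counts were not stable. With DESeq2 they were 5 at 48 h and 0 at 15 d, and at 15 d they were 17 with thinned cells and 42 with no filter on low counts. None of the 10 identity genes was called by edgeR or DESeq2 in any of these contrasts. At an unadjusted p below 0.05 there was 1 at 48 h, 0 at 15 d, 1 over both phases and 0 for the difference between phases, against 3.95%, 4.34%, 4.75% and 3.78% of all genes.

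That single gene was Agxt2l1 both times. At 48 h it had 257 and 278 CPM with cocaine and 164 and 192 CPM with saline, and at 15 d 260.5 and 221 CPM with cocaine and 165 and 222 CPM with saline. At maintenance, which was not tested, the order was the other way, with 142 and 171 CPM with cocaine and 227 CPM in the saline library used (195 CPM in the library of 8 astrocytes). The groups did not overlap at 48 h and overlapped at 15 d. The log2 differences were 0.57 ± 0.24 at 48 h and 0.34 ± 0.19 at 15 d, and 0.46 ± 0.15 over both phases (95% interval 0.14 to 0.77, unadjusted p = 0.00566, edgeR adjusted p = 0.983). The change was therefore not called, and its difference between the phases was -0.23 ± 0.31.

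Gfap had 87.4 and 203 CPM with cocaine against 207 and 332 CPM with saline at 48 h, and 71.2 and 217 CPM against 144 and 74.2 CPM at 15 d. The log2 differences were -0.90 ± 0.70 and 0.21 ± 0.66. The latter turned to -0.58 without the second cocaine library of 15 d and to -0.17 without the second saline library of 15 d. Over both phases the log2 difference was -0.35 with a 95% interval of -1.54 to 0.84. The spread of Gfap between libraries of 1 group was as large as any of these differences.

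For the other 8 genes the estimates over both phases ran from -0.16 for Acsbg1 and -0.13 for Gja1 to 0.21 for Gjb6 and 0.22 for Slc4a4. Aldoc had -0.04 with a 95% interval of -0.29 to 0.20, Aqp4 -0.01 (-0.24 to 0.22), Aldh1l1 0.07 (-0.23 to 0.37) and Fgfr3 0.13 (-0.15 to 0.41). The median of the 10 was 0.03, against 0.01 for all genes tested. In the lists of other genes 0 were called in any cocaine contrast.

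**Figure D4:**
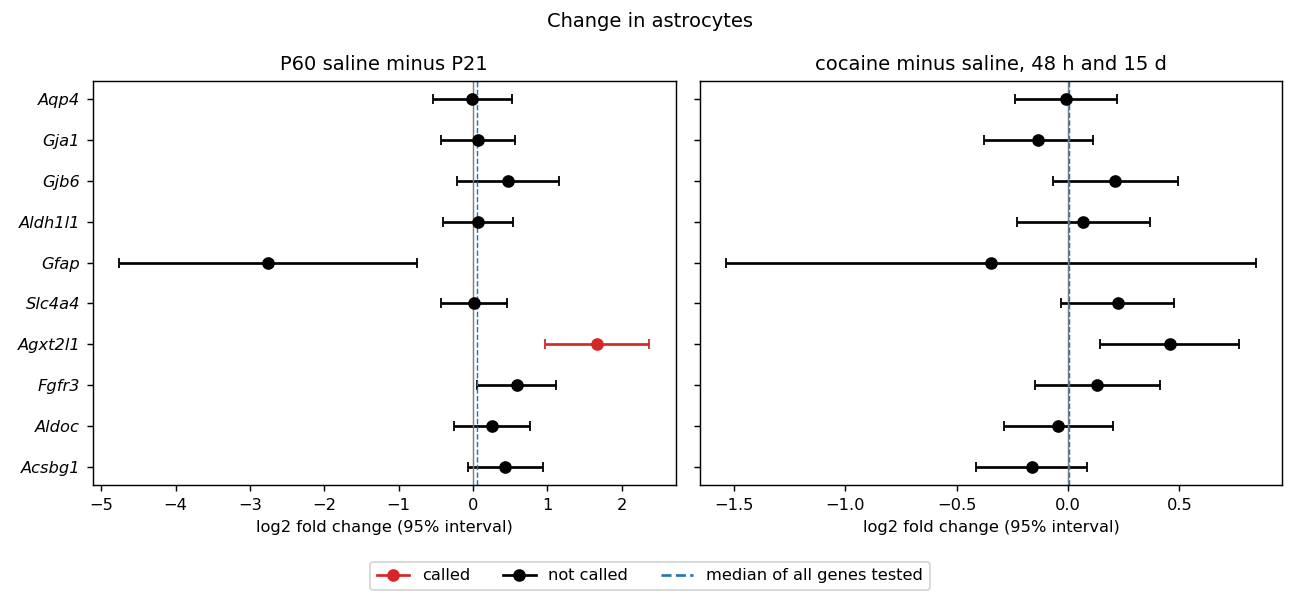
Log2 difference of the 10 genes in astrocytes with its 95% interval, for P60 saline minus P21 and for cocaine minus saline over 48 h and 15 d. Agxt2l1 at 1.67 is the single call in the comparison of age, the interval of Gfap runs from -4.76 to -0.76, and the interval of Agxt2l1, 0.14 to 0.77, is the one cocaine interval of the 10 that does not include 0.

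The phases themselves differed in level, a pattern chosen after the values were seen and given with no test. In the 4 libraries of 15 d, saline and cocaine together, Aqp4 ran from 523 to 547 CPM, against 656 to 881 CPM in the 7 earlier libraries. Gja1 ran from 775 to 905 CPM against 938 to 1499, Gjb6 from 482 to 648 against 719 to 1113, and Aldoc from 9008 to 12096 against 12808 to 17778. The ratios of the means were 0.672, 0.701, 0.600 and 0.719. For these 4 genes the phases did not overlap, whereas they did for the other 6, among them Agxt2l1 with a ratio of 1.06. How many of all genes separate the phases in this way was not counted, so these 4 have no background to be set against. Depth differed as well: the median astrocyte held 3693 to 4166 UMIs in the 15 d libraries and 2782 to 3649 in the earlier libraries used.

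Excitatory neuron markers summed to 739 to 1851 CPM in the astrocytes of the 15 d libraries and to 59.6 to 372 CPM in those of the earlier ones, and the 4 astrocyte genes outside the 10 summed to 6857 to 7826 CPM against 8128 to 9775 CPM. Phase, age at sampling and the handling of these libraries cannot be told apart, and the part of the neuronal RNA was not tested.

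Outside astrocytes the genes could be tested for age in 6 classes, in 19 tests that passed the filter on low counts, of which 5 were called by edgeR, 6 by DESeq2 and 7 (36.8%) had an unadjusted p below 0.05. Of all genes, 11.4% to 48.2% had such a p by class, so the 7 lay within the background. Aldoc was the gene with most of them. It rose from P21 to P60 in excitatory neurons, inhibitory neurons and oligodendrocytes, with log2 differences of 1.59 ± 0.25, 1.42 ± 0.42 and 1.77 ± 0.24 (edgeR adjusted p = 0.00106, 0.0494 and 6.8e-05). In these classes 18%, 14.1% and 17.8% of all genes tested were called, and 8.04%, 5.78% and 7.65% were called higher, so a call was common there.

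In excitatory neurons Aldoc had 42.3, 26.8 and 30.2 CPM at P21 and 60.8 to 128 CPM in the 6 saline libraries. In inhibitory neurons it had 63.5 to 104.9 CPM at P21 against 109.9 to 350.2 CPM. In oligodendrocytes it had 53.1 to 63.4 CPM against 138 to 308 CPM. The groups did not overlap in any of the 3 classes. In excitatory neurons Aqp4, Gja1, Gjb6, Aldh1l1, Slc4a4, Fgfr3 and Acsbg1 were also tested and not called, with log2 estimates from -0.30 for Aldh1l1 to 1.33 for Fgfr3, and in inhibitory neurons Slc4a4 was not called.

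In microglia the estimate was of the opposite sign, -2.03 ± 0.57, and was not called by edgeR (adjusted p = 0.177), while DESeq2 gave an adjusted p of 0.0198. The background of calls was 0.726% there. The P21 libraries had 370.4, 356 and 867 CPM, from 140, 15 and 22 UMIs, and the saline libraries 29.7 to 262 CPM. Newly formed oligodendrocytes had an estimate of 1.60 ± 0.70 that was not called (background 2.31%).

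Counts of Aldoc per UMI of the other 9 genes give a measure of whether the 10 kept one ratio. In astrocytes there were 2.66 Aldoc UMIs per UMI of the others at P60 and 2.56 at P21. Microglia had 2.74 and 2.68, close to astrocytes, and endothelial cells 1.11 and 1.05. The ratio was 4.80 in excitatory neurons at P60 and 1.70 at P21, and 3.88 and 3.85 in inhibitory neurons and 4.23 and 4.30 in oligodendrocytes. Precursors had 4.61 at P60 and 2.2 at P21, the latter from 11 Aldoc UMIs, and newly formed oligodendrocytes 1.90 and 2.98. The part of free astrocyte RNA in the levels of the other classes was not tested.

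In endothelial cells 2 of 6 genes tested were called, against 12.4% of all genes (5.23% higher and 7.18% lower). Gja1, which endothelial cells also use in their junctions, had 67.1, 80.0 and 85.8 CPM at P21 and 25.1 to 43.0 CPM in the saline libraries. The groups did not overlap, and Gja1 fell by 1.21 on the log2 scale from P21 to P60 (SE 0.15, edgeR adjusted p = 6.1e-05). Fgfr3 rose by 1.85 ± 0.42 (adjusted p = 0.00659), from 4.41, 1.72 and 2.92 CPM to 5.00 to 18.6 CPM, but only 14, 4 and 7 UMIs stood behind the P21 values. Gjb6, Slc4a4, Aldoc and Acsbg1 were tested in this class and not called.

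**Figure D5:**
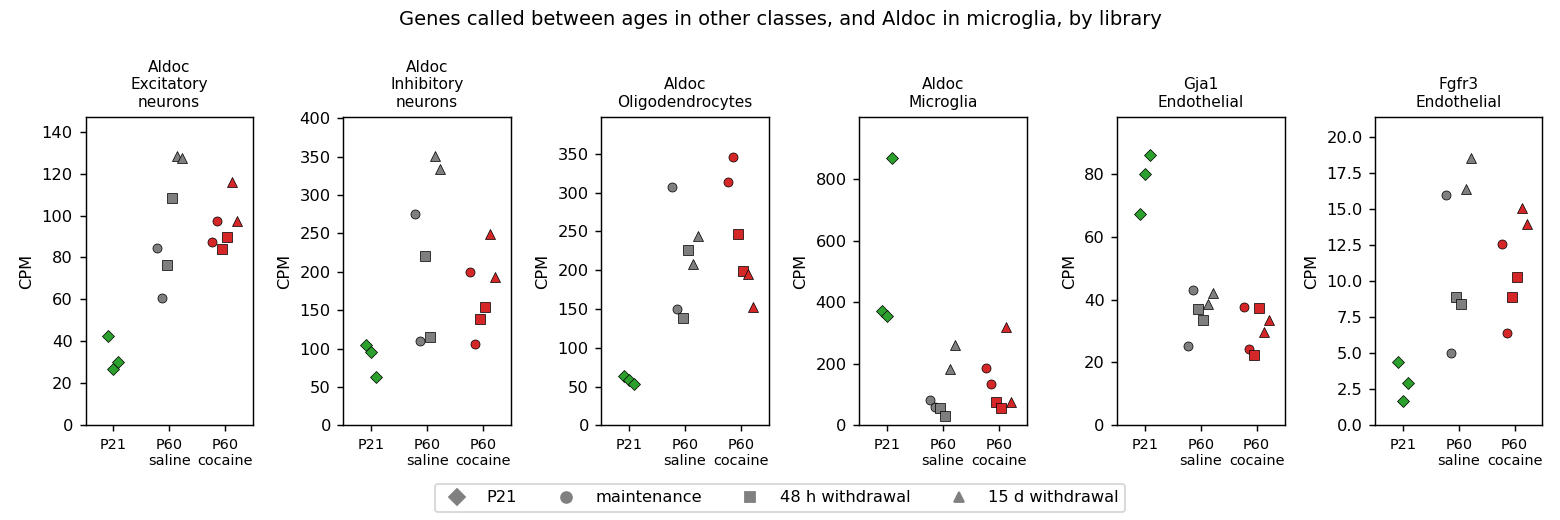
Levels in CPM by library of Aldoc in excitatory neurons, inhibitory neurons, oligodendrocytes and microglia, and of Gja1 and Fgfr3 in endothelial cells, at P21 (n = 3), P60 saline (n = 6) and P60 cocaine (n = 6). Aldoc is lower at P21 in the first 3 classes and Gja1 is higher, at 67.1 to 85.8 CPM.

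Cocaine and saline were compared for the same genes in 7 classes other than astrocytes, in 105 tests at maintenance, 48 h, 15 d and over the phases. None was called by edgeR or DESeq2, 9 (8.57%) had an unadjusted p below 0.05, against 2.96% to 8.49% of all genes by class and contrast, and the lowest edgeR adjusted p was 0.109. In the same contrasts the share of all genes called was 0.706% in excitatory neurons, 0.815% in inhibitory neurons, 0.264% in oligodendrocytes, 0.0553% in newly formed oligodendrocytes, 0.0847% in precursors and 0.139% in endothelial cells at 15 d. It was 0.0339% in precursors and 0.0199% in endothelial cells at 48 h, 0.096% in microglia at maintenance, 0.0466% in oligodendrocytes over the phases and 0% in the remaining class and phase pairs. The difference between 15 d and 48 h gave 0 calls in 28 tests, with 4 (14.3%) at an unadjusted p below 0.05 against 2.78% to 5.13% of all genes, where the share of all genes called was 0.0582% in inhibitory neurons and 0% in the others.

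Astrocytes made up 5.12%, 1.52% and 1.59% of the cells with an agreeing class and cluster (4183, 2695 and 3201) in the P21 libraries and 0.758% to 19.9% of those of the 6 saline P60 libraries. The mean was 4.16 percentage points higher in saline P60 (6.91% ± 6.92, n = 6, against 2.74% ± 2.05, n = 3). It fell to 1.57 points without the first saline maintenance library, which had 19.9% astrocytes (exact permutation p = 0.482). The difference was within the spread between libraries (two-sided exact permutation test over 84 splits, p = 0.405, the smallest it allows being 0.0119). Cocaine and saline libraries of P60 differed by -0.746 percentage points (two-sided exact permutation test within phases over 216 splits, p = 0.861, the smallest it allows being 0.00926). The direction was not stable: the difference was 2.44 points without the first saline maintenance library, -3.93 without the second and 0.189 among non-neuronal cells.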

How the data were processed

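Cells of mouse PFC had been captured by the authors with a droplet platform (10x Chromium), and reads were aligned to mm9 and turned into UMI counts by Cell Ranger, then filtered and clustered with Seurat 2.1.0. The authors deposited whole-number counts of UMIs per gene and cell for each library, together with a table of the retained cells that gives class, cluster and the fraction or percent of mitochondrial UMIs. A joined matrix of the deposited counts was not used. Doublets had been filtered by the authors on the number of genes and by inspecting clusters, and no caller was run here.

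Cells were grouped by library and by the deposited class, where class and cluster agreed. Counts were summed per class and library, without the 13 genes of the mitochondrial genome and the 143 of ribosomal proteins (25989 genes kept), and a class with fewer than 10 cells in a library was left out. CPM were computed from these sums. The sums were tested with edgeR 4.0.16 (quasi-likelihood, TMM, filter on low counts) in R 4.3.3, with P60 saline against P21 in one fit and the P60 groups in another. DESeq2 1.42.0, its size factors, no filter, other minimums of astrocytes, thinned cells, all P60 libraries and leaving out each library were alternatives. Class alone, P21 libraries 2 and 3 summed, levels without the 15 d libraries and shares of cells as counted were added after seeing the data. Figures and tables were made with python 3.11.15. Intervals on shares are Wilson intervals at 95% and cover counting error only, as do the limits for a count of 0 (3 counts).

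The 10 genes, the lists of other genes and the tests were chosen with earlier results of these data known. The text names the 10 genes in every comparison in astrocytes, those tested in other classes where a call was made, the called genes of each list, the 5 genes most correlated with the mean of the 10, and in clusters the highest and lowest. Vim, Gapdh, Snap25, the single levels of Slc1a2 and Slc1a3 and the single markers of other cells were named beyond this rule after their values were seen. One marker gene, and the marker sum that holds it, is not reported here. In data simulated from these sums, 200 genes changed by 1 on the log2 scale were recovered at 14.5% for age (5420 genes), 6.5% at 48 h (6752), 30% at 15 d (6822) and 45% over both phases (6802), so most changes of that size would not be called. Replicates are libraries of pooled mice, and where nothing says that they came from separate days p-values measure the spread between these libraries only.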

Additional observations from a re-analysis of the deposited data

Results flagged for a closer look

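Aqp4 in astrocytes had a ratio of cocaine to saline means of 1.03 at 48 h and 0.961 at 15 d, with the libraries of each phase not overlapping and in opposite directions. The interaction term gave -0.09 on the log2 scale (edgeR, unadjusted p = 0.706), so the difference between the phases was not larger than the spread between libraries. Aldoc had a ratio of saline P60 to P21 means of 2.95 in excitatory neurons, 2.66 in inhibitory neurons and 3.63 in oligodendrocytes but 0.210 in microglia, with no overlap of the libraries in any of these classes. The difference between the classes was not tested. Of 20 groups of 5 or 6 libraries checked for a library far from the others, 0 held one, where chance alone would mark about 1 in 20.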

How the results depend on the processing

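In astrocytes, the genes called higher at P60 than at P21 (8) became 61 with no filter, 13 with a minimum of 5 astrocytes, 30 with thinned cells, 45 with all P60 libraries, 228 by class alone and 1 with P21 libraries 2 and 3 summed. Those called lower (41) became 79 with DESeq2, 194, 67, 94, 258 and 9 for no filter, thinned cells, all P60 libraries, class alone and summed libraries. Of the 10 genes, 6 were called higher by class alone, 0 with summed libraries, and 1 lower with all P60 libraries. Aqp4 (-0.01) turned to 0.0070 with no filter, 0.063 thinned, 0.64 by class alone and 0.088 summed. Slc4a4 (0.01) turned to -0.0098 with DESeq2, -0.00021 with its size factors and -0.027 summed. Leaving out 1 library gave 0 to 74 genes higher, 1 to 115 lower and 0 to 2 of the 10 higher, with ranges of -0.24 to 0.19 for Aqp4, -0.065 to 0.16 for Gja1, -0.052 to 0.23 for Aldh1l1 and -0.13 to 0.12 for Slc4a4. The causes were not tested.

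For cocaine, the genes called at 48 h (0) became 5 with DESeq2, 2 with no filter, 1 thinned and 1 with the libraries of the phase alone. At 15 d (1) they became 0 with DESeq2, 2 with its size factors, 42 with no filter, 14 with a minimum of 5 astrocytes, 17 thinned and 0 with the phase alone. Over both phases (0) they became 6 and 3, and for the difference between phases (0) 3 and 1, with no filter and thinned, and 1 with DESeq2 for the latter. Over both phases Aqp4 turned to 0.012 with no filter, and Aldoc to 0.035 with a minimum of 5 and 0.0086 thinned. Leaving out 1 library gave 0 to 5 genes at 48 h, 0 to 80 at 15 d, 0 to 31 over both and 0 to 6 for the difference. The ranges over both phases were -0.022 to 0.025 for Aqp4, -0.018 to 0.16 for Aldh1l1, -0.74 to 0.034 for Gfap and -0.17 to 0.071 for Aldoc, with -0.58 to 0.97 for Gfap at 15 d and -0.44 to 0.026 for Agxt2l1 between phases. None of the 10 was called under any of these for cocaine, nor at maintenance, where a fit was possible only with a minimum of 5 astrocytes.

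Genes with shares of cells that did not overlap between ages (2) became 1, Fgfr3 without Agxt2l1, when cells were thinned to 1000 UMIs and 4 as counted. The share of astrocytes, cocaine minus saline, was 0.189 points among non-neuronal cells and -3.93 to 2.44 with 1 library left out. No paired analysis was possible because no title number is shared between P60 groups and the numbering starts anew at P21, where it names no shared animal, so that of the 5 saline libraries tested for age 1 has a number in common with P21. The 8 astrocyte clusters held P60 cells alone, so that keeping P60 cells changed none of their values.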
